A study of Mus musculus with 2 samples.

Results

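The genes of the antibody-secreting plasma cell and of the route that carries IgA across the epithelium were compared between 1 pool of WT mice and 1 pool of Lrrc19 KO mice. The set held 10 of the 18194 mouse genes that had a probe set of their own on the array: Igha, Ighm, Iglv1, Jchain, Pigr, Mzb1, Derl3, Tnfrsf17, Cd79a, and Cd79b. The genes were chosen by symbol, with the values of these 2 arrays already known, the low signal of Iglv1 in the KO pool among them, so their differences are a description and support nothing. All 30 of the 45037 probe sets that name a member were taken, of which 25 name 1 gene and 5 name several immunoglobulin genes. Each pool was an even mixture of RNA from 5 C57BL/6 mice aged 6 weeks (2 male and 3 female) kept under specific pathogen-free conditions. The mice of one pool were WT and those of the other carried the Lrrc19 knockout, a deletion of a leucine-rich repeat receptor, and no agent was given to either. The cells were shaken off the intestine with 30 mM EDTA, and magnetic sorting then removed macrophages, dendritic cells, B cells, and cells with CD4 or CD8. Plasma cells are not named among the cells removed.

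IgA is the main antibody of mucosal secretions. It is made by plasma cells under the epithelium, which join IgA monomers through the J chain. The polymeric immunoglobulin receptor, Pigr, binds this complex at the basal side of the epithelial cell and carries it to the lumen. An antibody holds a heavy chain (Igha for IgA, Ighm for IgM) and a light chain, which in the mouse is mostly kappa and less often lambda. Its folding in the ER draws on chaperones such as Mzb1 and on the ER-associated degradation factor Derl3. Tnfrsf17 encodes BCMA, a survival receptor of plasma cells, while Cd79a and Cd79b form the signaling part of the B cell receptor, which plasma cells largely switch off.

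Every value is an intensity in arbitrary units, and a difference is the log2 intensity of the Lrrc19 KO pool minus that of the WT pool. With 1 array per genotype there was no replicate, so the values carry no error, test, or p-value and the spread between mice is not known. Probe sets under 127, the median of all probe sets, were treated as under the floor. A gene is represented by its brightest probe set that names that gene alone, and it was called lower or higher only when it reached the floor in at least 1 pool and differed at least 2-fold. Across all 12519 genes at the floor, the robust SD of the difference was 0.27 and the median was 0.01. Fewer cells of a type and less RNA per cell cannot be told apart in such pools.

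Lrrc19 itself read 905 in WT mice and 212 in Lrrc19 KO mice, a 4.26-fold lower signal. The scaling between the arrays is not settled. Genes called higher and lower numbered 69 and 51 as deposited, 52 and 76 at the same median, 100 and 30 with 8 control genes centred, and 22 and 677 with the hybridization spike-ins centred. These last 2 scalings shifted the median of all genes by 0.12 and -0.50. The ratio of 3′ to 5′ signal of Gapdh was 1.26 (WT) and 1.5 (KO), that of Actb 1.75 and 1.77, and that of the transferrin receptor 4.14 and 5.89. Non-epithelial tissue was present beside the labeled epithelium: all 10 smooth muscle genes were at the floor (summed intensity 65747 in WT and 85678 in KO, median difference 0.37). Of the 6 adipocyte genes at the floor, 3 were called lower in KO, beside 0.407% of all genes at the floor. None was called higher, beside 0.551%. The summed intensity of these 6 was 6126 in WT and 1922 in KO. The part of these values in the results below was not tested.

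The plasma cell members Igha, Jchain, Mzb1, Derl3, and Tnfrsf17 were above the floor in both pools, Tnfrsf17 only just so in KO. The B cell receptor genes were near or under the floor. Among plasma cell markers outside the members, Sdc1, Xbp1, and Pou2af1 were above it in both pools. Prdm1 and Irf4 were under it in WT. Of the 10 members, 9 reached the floor in at least 1 pool and Cd79a was under it in both. Iglv1 was the single member called lower (1 of 9, beside 0.407% of all genes at the floor), no member was called higher (beside 0.551%), and the other 8 differed by less than 2-fold. The median difference of the 9 was -0.15, with 7 below 0 and 2 above, whereas 47.9% of all genes at the floor were below 0. Since the members were picked with these values known, the shares are given as a description.

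**Figure D1:**
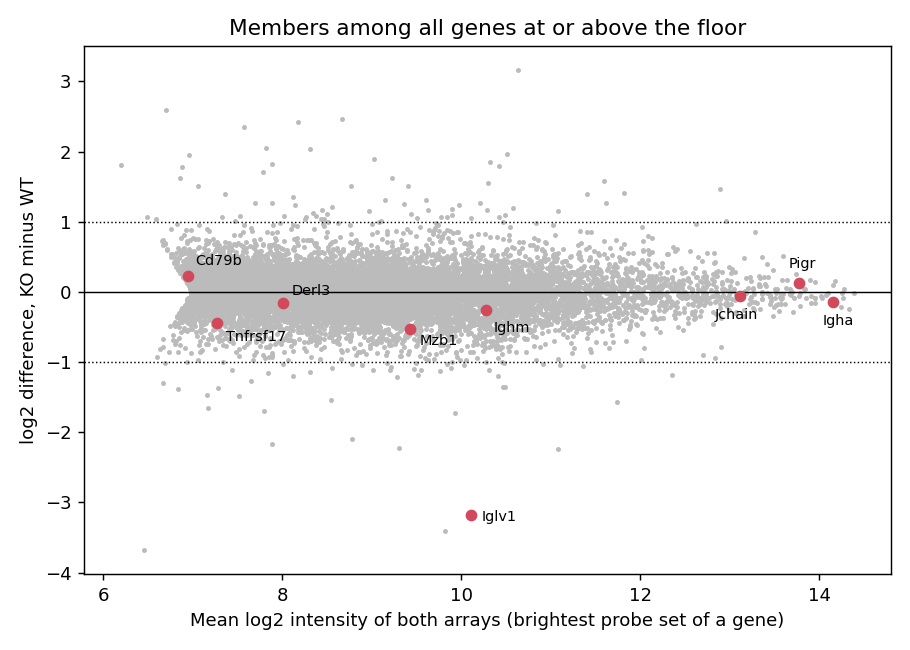
Difference between the Lrrc19 KO and WT pools (log2, y axis) against the mean log2 intensity of both arrays (x axis) for the brightest probe set of each of the 12519 genes at or above the floor (grey) and the 9 members among them (red, named); dotted lines mark 2-fold. Iglv1 sits at -3.18, and the other 8 members lie between -0.52 and 0.23.

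The 5′ ends of the Pigr and Derl3 genes are shown because their products stand at the ends of the route described here, Pigr at the epithelial cell and Derl3 in the ER of the plasma cell, and because theirs were the member windows that held a match to an E-box or an ER stress element. They are the 250 bases before the start of each gene from RefSeq (GRCm38.p6), Pigr at chr1:130826434-130826683 on the + strand and Derl3 at chr10:75893148-75893397 on the + strand. Capitals mark CACGTG (an E-box, the same on both strands) in both windows, and in Derl3 also the ER stress element, CCAAT and CCACG set 9 bases apart, which lies on the reverse strand and follows the E-box.
Pigr: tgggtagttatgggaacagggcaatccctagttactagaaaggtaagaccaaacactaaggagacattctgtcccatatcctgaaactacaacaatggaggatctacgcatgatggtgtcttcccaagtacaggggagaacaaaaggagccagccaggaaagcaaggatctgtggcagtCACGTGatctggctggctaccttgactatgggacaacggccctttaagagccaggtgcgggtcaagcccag
Derl3: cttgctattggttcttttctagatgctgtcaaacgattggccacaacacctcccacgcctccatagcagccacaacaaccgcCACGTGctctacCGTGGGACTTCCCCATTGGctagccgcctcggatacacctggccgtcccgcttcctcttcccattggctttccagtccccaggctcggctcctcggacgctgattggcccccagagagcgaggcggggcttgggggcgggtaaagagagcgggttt
The E-box begins 71 bases before the start of Pigr and 168 bases before that of Derl3. Promoter windows were given for 5 members (Jchain, Pigr, Derl3, Cd79a, and Tnfrsf17). Motifs were searched on both strands of all 32851 windows of this length, and the E-box was in 6.02% of them and the ER stress element in 0.113%. The octamer ATGCAAAT, the letters that the Oct factors of B cells read, was in 1.6% of all windows and in no member's window. TGACGTGG, the unfolded protein response element read by XBP1, was in 0.563% and likewise in no member's window, and TATAAA was in 12.4% and in that of Tnfrsf17. These are matches of letters and not sites.

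The genes of the secreted IgA complex and of its transport gave bright signals and differed little. Igha, the IgA heavy chain, had intensities of 19219 in WT and 17423 in KO on its brightest probe set. The other probe sets of Igha read 18624 and 16740, and 13932 and 12369. All 3 were slightly lower in the KO pool, with differences of -0.14, -0.15, and -0.17, each smaller in size than the robust SD over all genes (0.27). Over the 100 brightest probe sets, the median difference was -0.04 and the robust SD about that median was 0.13. Jchain, which encodes the J chain that links IgA monomers and docks them to Pigr, read 9030 in WT and 8701 in KO. Its difference of -0.05 took the opposite sign (0.06) when the arrays were centred on the control genes.

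Pigr read 13436 in WT and 14724 in KO on one probe set and 13077 and 14176 on the other. Both were higher in the KO pool, by 0.13 and 0.12. This sign also turned, to -0.37, with the spike-ins centred. Bright probe sets in general differed little between the arrays: among the 100 brightest, none passed 2-fold in either direction and the median size of the difference was 0.09. Saturation of bright probes was not tested.

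Iglv1, the lambda light chain variable gene, held the large difference of the set. Its brightest probe set read 3319 in WT and 366 in KO. The KO signal was 9.07-fold lower (difference -3.18). The 2 genes at the floor with a lower difference were Adipoq (-3.68, its KO value under the floor) and Car3 (-3.40), both of the adipocyte list. A second Iglv1 probe set read 865 and 207 (4.18-fold lower). Another, which names both Iglc1 and Iglv1, read 1157 and 499 (2.32-fold lower). All 3 were lower in the KO pool, and all 3 have names that mark them as able to match several transcripts. The single Iglv1 probe set without such a name was under the floor in both pools, at 16.7 and 7.40. Left to probe sets without such names, Iglv1 has no measured difference.

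**Figure D2:**
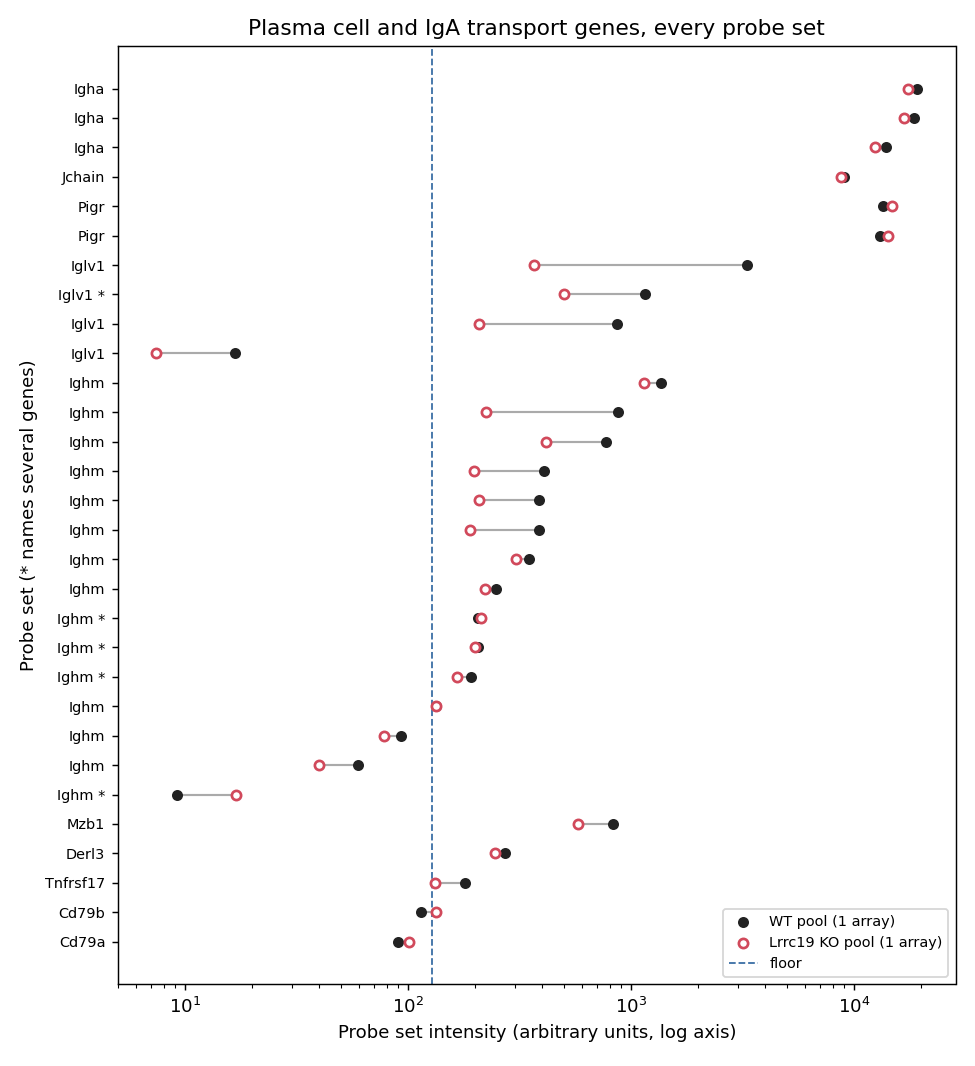
Intensity (arbitrary units, log x axis) of all 30 probe sets of the 10 members on the WT array (filled points) and on the Lrrc19 KO array (open points), with the floor of 127 dashed; an asterisk marks probe sets that name several genes. The pairs of Igha, Jchain, and Pigr lie close together at the bright end, whereas those of Iglv1 and some of Ighm are wide apart.

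Ighm, the heavy chain of IgM, gave different answers on different probe sets. The brightest of those that name Ighm alone read 1361 in WT and 1136 in KO (difference -0.26). Probe set 1452535_at read 871 and 223 (3.91-fold lower). A further pair read 408 and 197 (2.07-fold lower) and 386 and 189 (2.04-fold lower), the latter just past 2-fold, and the next, at 387 and 208 (difference -0.89), just short of it.

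The Ighm probe sets past 2-fold thus read from 386 to 871 in WT, dimmer than the brightest (1361, difference -0.26). Another, short of 2-fold, read 768 and 414 (difference -0.89). The remaining ones at the floor were close together in the pools, at 349 and 305, 248 and 222, and 133 and 134. Of the 9 Ighm probe sets at the floor, 3 were lower and 6 differed by less, with 8 below 0, a median of -0.89, and a range from -1.97 to 0.01. Both under the floor read lower in KO, at 59.4 and 39.7, and at 93.0 and 77.6. The averaged difference of the 11 probe sets that name Ighm alone, those under the floor included, was -0.66. If probe sets able to match several transcripts are set aside, Ighm was represented by 1452535_at and passed 2-fold. Which transcripts each probe set detects was not tested.

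The 4 probe sets that name Ighm beside another heavy chain gene differed little where they could be measured. Those that name Ighv14-2, Ighg3, and Ighm read 192 in WT and 166 in KO, 206 and 212, and 9.14 and 16.9, the last under the floor in both. The one that names Ighm and another variable gene read 206 and 200. The differences of the 3 at the floor ran from -0.21 to 0.04. Over all member probe sets, 6 of the 25 at the floor were lower in KO, beside 0.457% of all probe sets, and 0 were higher, beside 0.953%. These 6 were the 3 of Iglv1 and 3 of Ighm.

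All immunoglobulin probe sets were then taken, members or not, to show how the chains differed among themselves. Of 56, 39 were at the floor. Of these, 7 were lower (17.9%, beside 0.457% of all probe sets at the floor), none was higher (beside 0.953%), and 32 differed by less. The median difference of the 39 was -0.19, and 74.4% were below 0, beside 46.8% of all probe sets at the floor. The 39 include 3 probe sets of Igha, 12 that name Ighm, and 3 that name Iglv1, members picked with their values known. Of these, 3, 10, and 3 were below 0, so the shares are a description. Probe sets of one locus share sequence and are not replicates of each other. Beyond the 6 member probe sets, picked with their values known, the seventh lower one was a kappa probe set, 1451965_at. Its annotation names Igkv6-14, Igkv6-23, and Igkv8-19. It read 3228 in WT and 169 in KO. This was 19.1-fold lower in KO (difference -4.26).

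Other probe sets for those kappa variable genes did not show a difference of this size. The remaining pair that name the same 3 genes read 226 and 130, and 145 and 99.3, the latter under the floor in KO. A probe set naming Igkv6-14 and Igkv6-23 read 6668 and 5457, and one naming Igkv6-14 alone read 319 and 168. These were all lower in the KO pool, with differences from -0.92 to -0.29. The 3 probe sets that name Igkv6-23 beside Igkc, given next, were bright and differed by only -0.185 to -0.074.

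The kappa constant region, which every kappa antibody carries, differed little. The 3 probe sets that name Igkc beside variable genes read 18818 in WT and 17661 in KO, 16278 and 14319, and 10762 and 10221 (median difference -0.09). Another kappa variable probe set, Igkv8-30, read 10798 and 9042. Some kappa variable probe sets were higher in the KO pool, among them Igkv9-120 at 1537 and 1914 and Igkv15-103 at 115 (under the floor) and 195. Over the 16 kappa probe sets at the floor that do not name Igkc, 10 were below 0 and 6 above, with a median of -0.22.

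By chain, the 3 lambda probe sets had a median difference of -2.06, the 9 for Ighm alone -0.89, and the 3 for Igha -0.15. The 5 other heavy chain probe sets, 3 of which name Ighm beside another gene, had a median of 0.00. With probe sets named as able to match several transcripts set aside, 15 immunoglobulin probe sets at the floor were left. Of these, 2 were lower (1451965_at and 1452535_at) and the median was 0.00. The setting goes by the ending of the name alone, and 1451965_at is annotated to 3 variable genes. That setting was added after the values were seen.

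**Figure D3:**
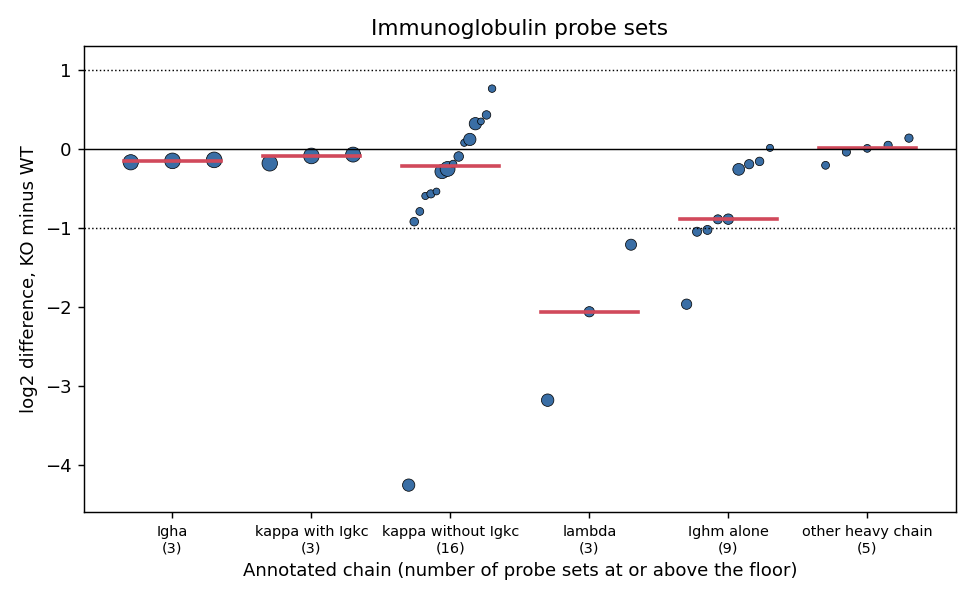
Difference between the Lrrc19 KO and WT pools (log2, y axis) of the 39 immunoglobulin probe sets at or above the floor, by annotated chain (x axis, with the number of probe sets); each point is a probe set, larger where brighter, the red bar is the median, and dotted lines mark 2-fold. Igha and the kappa probe sets with Igkc sit just under 0, whereas lambda, part of Ighm, and 1 kappa probe set lie below -1.

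The members with a role inside the plasma cell were lower in the KO pool by less than 2-fold. Mzb1, a chaperone of antibody assembly, read 829 in WT and 577 in KO (difference -0.52, or 1.44-fold lower). Tnfrsf17, the BCMA receptor, read 180 and 132 (1.36-fold lower, difference -0.44), the KO value close to the floor. These differences were larger in size than the robust SD over all genes, but 595 of the genes at the floor had a lower difference than Mzb1 and 866 a lower one than Tnfrsf17. Derl3, which helps return misfolded proteins from the ER, read 271 and 244 (difference -0.15). Each of these genes rests on 1 probe set.

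Other genes of plasma cell identity lay on both sides of 0. Of 19 measured, 13 were at the floor and none passed 2-fold, beside 0.407% lower and 0.551% higher of all genes at the floor. Of the 13, 10 were above 0 and 3 below (median 0.18, or -0.38 with the spike-ins centred, summed intensity of the 13 13939 in WT and 15057 in KO). Sdc1, the surface syndecan used to mark plasma cells but also made by epithelium, read 3812 and 4566. Prdm1, the transcription factor Blimp-1, read 117 (under the floor) and 176. Irf4, which acts upstream of Prdm1, read 121 (under the floor) and 129, and Pou2af1, a coactivator of the Oct factors, read 379 and 351. Xbp1, which drives expansion of the ER, read 5488 and 5529 on its brightest probe set, 4997 and 3287 on another, and 4258 and 5140 on another still, so its probe sets differed in sign. Lman1, a cargo receptor between ER and Golgi, had the lowest difference among those at the floor (875 and 639, -0.45).

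The genes of antibody folding and ER export lay mostly below 0. All 28 were at the floor, 22 were below 0 and 6 above, and the median was -0.27, whereas over all genes at the floor 47.9% were below 0 and the median was 0.01. Calls numbered 3 lower and 0 higher, beside 0.407% and 0.551% of all genes at the floor. Ssr4, a subunit of the translocon-associated complex, read 3156 and 1529 (2.06-fold lower), but its other probe sets read 178 and 193, and 346 and 402. Fkbp11, a prolyl isomerase of secretory cells, read 369 and 180 (2.04-fold lower), and another probe set read 167 and 213. Txndc5, a disulfide isomerase, read 2758 and 1359 (2.03-fold lower), and its other probe set 2341 and 1054 (2.22-fold lower). Txndc5 was thus lower on both probe sets shown, whereas those of Ssr4 and Fkbp11 differed in sign. All 3 were near the 2-fold line, and their number fell to 0 with the control genes centred. Epithelial secretory cells also use these genes, so they are not specific to plasma cells.

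Of the 25 folding and export genes with a promoter window, 9 held the ER stress element shown above for Derl3: Pdia6, Hsp90b1, Hspa5, Dnajc3, Creld2, Syvn1, Ero1b, Calr, and Canx. None of the 9 passed 2-fold, beside 0.407% lower and 0.551% higher of all genes at the floor. At those shares, a group of this size holds few calls or none. Pdia6, a disulfide isomerase, came nearest, at 1975 and 1105 (difference -0.84), whereas Hspa5, the chaperone BiP, had a difference of 0.14 and Syvn1, a ligase of ER-associated degradation, 0.28. Ssr4, Fkbp11, and Txndc5 did not hold the ER stress element, and the window of Txndc5 held TGACGTGG. A link between these letters and the differences was not tested.

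The B cell receptor genes were near the limit of measurement. Cd79a read 89.6 in WT and 101 in KO, neither of which reached the floor. Cd79b read 114 in WT, under the floor, and 133 in KO. Another B cell marker, Ms4a1 (CD20), was also dim, at 108 (under the floor) and 166. Of 27 B cell genes measured, 22 were at the floor, with a median difference of 0.07, 14 above 0 and 8 below. The single one called higher (beside 0.551% of all genes at the floor) was Tnfrsf13c, the BAFF receptor, and none was called lower (beside 0.407%). Tnfrsf13c read 125 in WT, just under the floor, and 253 in KO (at least 1.99-fold higher against the floor). This call was lost with the arrays at the same median.

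Germinal center and follicle genes had no call in either direction, beside 0.407% lower and 0.551% higher of all genes at the floor. Of 16 measured, 8 were at the floor, and 7 of these were above 0 (median 0.18). Bcl6, the factor that defines germinal center B cells and is also made elsewhere, read 256 and 417. Clu, made by follicular dendritic cells and by epithelium, read 637 and 980, and Ccl20, the chemokine of the follicle-associated epithelium, 220 and 270. These differences of 0.70, 0.62, and 0.30 all lay above 0 and under 2-fold.

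Genes that induce IgA and guide plasma cells to the gut also had no call (all genes at the floor: 0.407% lower, 0.551% higher). Of 21 measured, 16 were at the floor, 12 were above 0, and the median was 0.16. Tnfsf13b, the survival factor BAFF, read 167 and 154, and Tnfsf13 (APRIL) was not analysed here as no probe set names it alone. Ccl28, the epithelial chemokine that draws IgA plasma cells, read 1202 and 1414. Its receptor Ccr10 was under the floor in both pools, at 92.6 and 82.7. Ccl25, the chemokine of the small intestine, read 156 and 193 on one probe set and 183 and 138 on the other, in opposite directions. Among genes of the list at the floor, the largest differences were those of Runx3 (311 and 396), Vcam1 (327 and 412), and Tgfbr2 (1715 and 1362), each under 2-fold.

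The epithelial machinery of transcytosis had no call as deposited (all genes at the floor: 0.407% lower, 0.551% higher). Of 22 genes measured, 20 were at the floor, 13 of them below 0 (median -0.08). Rab25, a small GTPase of the apical recycling endosome, read 1424 in WT and 726 in KO, a 1.96-fold lower signal, and passed 2-fold with the arrays at the same median. Rab3d, a GTPase of secretory vesicles, read 1390 and 1043, and Rab17, a GTPase of epithelial transcytosis, 880 and 671. Fcgrt, the neonatal receptor that carries IgG, read 782 and 658. These 4 were lower in KO by their brightest probe set, whereas 7 genes of the list lay above 0, led by Rab11fip1, an effector of Rab11 in recycling endosomes, at 401 and 494 (difference 0.30).

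Markers of the other cells in the pools are given beside these results. The 12 epithelial genes had a median of 0.05, with Epcam at 12473 in WT and 12915 in KO and Vil1 at 5569 and 5762. Of 10 pan-leukocyte genes, 9 were at the floor and 8 of these were below 0 (median -0.26, summed intensity 4467 in WT and 3879 in KO), among them Ptprc (CD45) at 982 and 953 and Cd53 at 464 and 318. T cell genes had a median of 0.07, with Cd3e at 202 and 220 and Cd3g at 264 and 171. Macrophage and dendritic cell genes had a median of -0.13 (summed intensity 12481 and 10366), with Adgre1 (F4/80) at 606 and 363. None of these 4 lists held a gene past 2-fold, beside 0.407% lower and 0.551% higher of all genes at the floor. At those shares, lists of this size hold few calls or none. Their part in the immunoglobulin and folding results was not tested.

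**Figure D4:**
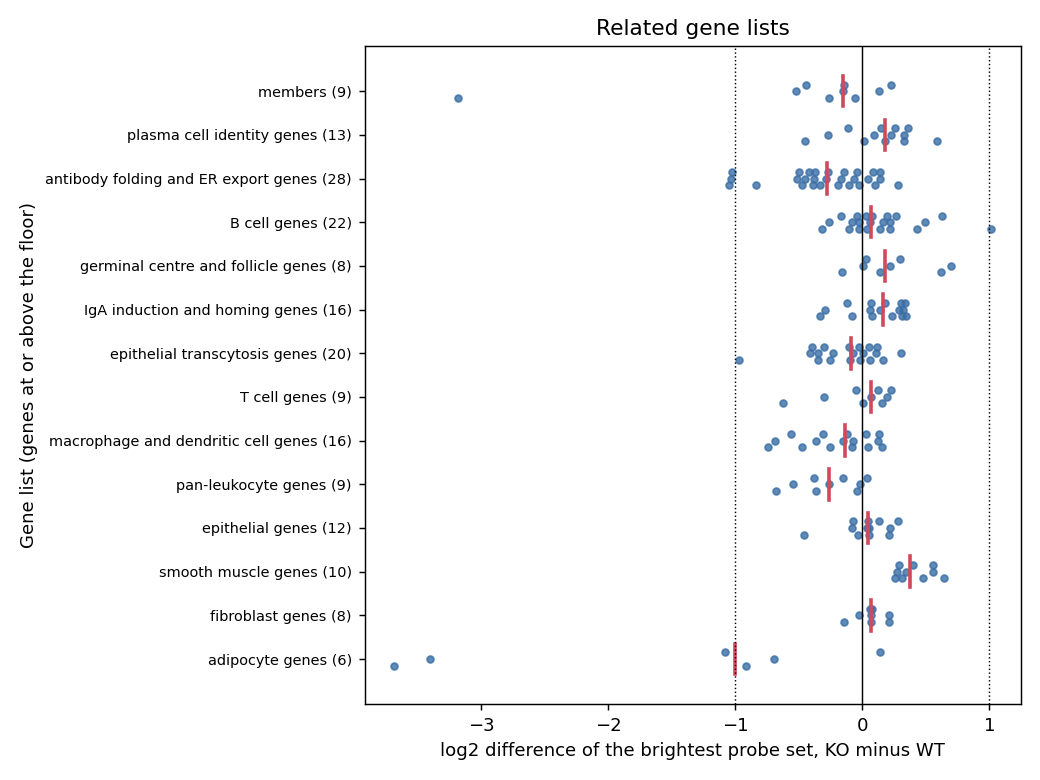
Difference between the Lrrc19 KO and WT pools (log2, x axis) of the brightest probe set of each gene at or above the floor, by gene list (y axis, with the number of genes); the red bar is the median and dotted lines mark 2-fold. Iglv1 stands apart from the other 8 members, the folding and export genes have a median of -0.27, and the adipocyte genes spread furthest below 0.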

How the data were processed

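RNA of epithelial cell preparations was hybridized to 2 Affymetrix mouse genome arrays, 1 per genotype, grouped by the genotype label. The deposited values are intensities on a linear scale, 1 per probe set. RMA is named, without a version, in the submitters' processing notes. The output of RMA is usually log2 and alike in distribution across arrays, whereas the deposited medians were 124 (WT) and 131 (KO), so the scaling between the arrays is unknown. Precision is limited by the number of arrays.

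Intensities below 1 were raised to 1 before log2 was taken (Python 3.11.15, numpy 2.4.6, pandas 2.3.3). Probe sets were named from the platform annotation, with symbols updated through RefSeq: 34945 named 1 gene, 932 several, and 64 controls were left out. As a floor, the 50th percentile of all intensities was used. A call needed a 2-fold difference at the floor. The calling step was tested on simulated data whose changes all lay well past 2-fold, with noise below the spread seen here. That test cannot tell how reliable calls near the 2-fold line are. The members and gene lists were chosen with earlier results of these data known. Named in the text are all members with all probe sets, the immunoglobulin probe sets past 2-fold or brightest, and, per list, genes past 2-fold, those with the largest differences, and defining markers; genes named for their probe set disagreement or promoter were added after their values were seen. Alternatives changed the scaling, the floor, the probe set chosen, and the probe sets allowed. Promoter windows are RefSeq's (GRCm38.p6); the sequence of Mzb1, the proteins, and the variable segments were not used here.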

Additional observations from a re-analysis of the deposited data

How the results depend on the processing

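No paired analysis was possible because each genotype had 1 array, and no replicate could be left out. Of 454 alternative values for 53 results, 408 moved by less than the robust SD over all genes or stayed within 1.5 times the count. The other 46 moved, 33 of them with the hybridization spike-ins centred. These numbers do not measure stability. Many of the 408 are counts of 0 that stayed 0. The same-median and control-gene settings shift a single gene by less than that SD. A small difference that changed sign, as that of Jchain did, was not labeled as moved. With the spike-ins centred, 2 members were lower in place of 1 (Mzb1 joined Iglv1, at -1.02), the members' median was -0.65 in place of -0.15, and 17 immunoglobulin probe sets were lower in place of 7. With probe sets named as able to match several transcripts left out, 2 immunoglobulin probe sets were lower. The 1 lower member was then Ighm (-1.97) in place of Iglv1, which was not measured. No member or immunoglobulin probe set was higher under any alternative run. With all probe sets that name a gene alone averaged, those under the floor included, Iglv1 was at -2.14 and Ighm at -0.66. The 3 lower folding and export genes became 0 with control genes centred, 5 with spike-ins centred, and 1 with quantile normalization, with averaged probe sets, or with those able to match several transcripts left out. The 1 higher B cell gene became 0 at the same median, with spike-ins centred, with quantile normalization, with values under the floor set to it, and with a floor taken from the 75th percentile. Rab25 became the 1 lower transcytosis gene at the same median. With spike-ins centred, lower genes became 1 of the plasma cell identity, transcytosis, and T cell lists, 2 of the pan-leukocyte, 4 of the macrophage and dendritic cell, and 5 (in place of 3) of the adipocyte list. The causes were not tested.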
